A study of Mus musculus with 36 samples.

Results

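Hippocampal slices of 8 vehicle-treated mice that had received theta-burst stimulation were compared between genotypes, 4 T41B mice against 4 wild-type mice, out of 36 libraries in the series. The libraries were chosen by their labels: treatment VEH, stimulation STIM, and genotype T41B or WT. T41B mice (Thy1-hAPPLond/Swe, Line 41) express mutant human APP (London and Swedish) from the neuronal Thy1 promoter and are used to model the amyloid of Alzheimer's disease. The wild-type mice were C57BL/6. All 8 mice were given vehicle by oral gavage for 3 months, from 13 to 16 months of age, so the controls had been handled and dosed alike. Each library holds RNA of a slice of the right hippocampus, frozen immediately after the stimulation, and a sham slice of every one of these mice was sequenced too.

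In mice that deposit amyloid, microglia gather around plaques and switch from a surveying state to one with high lysosomal, lipid-handling and antigen-presenting activity. That switch runs through the lipid and lipoprotein receptor Trem2 and its adaptor Tyrobp, which recruits the kinase Syk. Astrocytes near plaques raise intermediate filaments and acute-phase proteins. Theta-burst stimulation imitates the hippocampal rhythm of exploring rodents and is used to induce long-term potentiation, and it switches on immediate-early genes in neurons within minutes.

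The 8 libraries held 15639299 to 23062895 expected counts each. Expression is given as CPM (counts scaled to a common library size after TMM normalization), and values by mouse run in the order Mouse1510, Mouse1579, Mouse1551, Mouse1553 for T41B and Mouse1522, Mouse1524, Mouse1509, Mouse1513 for wild type. A log2 fold change is the T41B level over the wild-type level with its standard error (SE), and a gene was called at an adjusted p under 0.05 in edgeR's quasi-likelihood F test, adjusted over all 19478 genes tested. The labels place the mice in 4 batches: batch A holds Mouse1510 and Mouse1522, batch C holds Mouse1579 and Mouse1524, batch E holds the wild-type mice Mouse1509 and Mouse1513 alone, and batch G holds the T41B mice Mouse1551 and Mouse1553 alone.

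The genotype labels were first set against the transgene's cassette. Thy1 (ENSMUSG00000032011; GRCm38.p6 chromosome 9, 44043384 to 44048579), a neuronal surface glycoprotein, was at 1050, 2000, 1490 and 2510 CPM in the T41B slices and at 338, 384, 303 and 282 CPM in the wild-type slices. The groups did not overlap, with a log2 fold change of 2.43 (SE 0.23, adjusted p = 4.4e-08). Mouse App, the amyloid precursor, was at 1130 ± 70.7 CPM against 1190 ± 94.8 CPM (SD, n = 4 each) and was not called (log2 fold change -0.07, SE 0.08, adjusted p = 0.74). Whether reads of the human transgene can be counted under mouse App or Thy1 is not given in the sources used here.

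The stimulated slices of 2 of the 4 batches carried transcripts of the choroid plexus, the ventricular tissue that makes cerebrospinal fluid and lies against the hippocampus. The summed level of 9 choroid plexus genes was 1220 and 1000 CPM in the batch E slices (wild type) and 298 and 116 CPM in the batch G slices (T41B), against 14.6 to 22.5 CPM in the slices of batches A and C. Ttr, the thyroxine carrier transthyretin, was at 1070 and 878 CPM in batch E and at 248 and 90.1 CPM in batch G. In batches A and C it was at 0.954 and 0.586 CPM in T41B mice and at 0.13 and 0 CPM in wild-type mice. In the sham slices of the batch E mice, Mouse1509 and Mouse1513, Ttr was at 0.178 and 0.865 CPM, and in those of the batch G mice, Mouse1551 and Mouse1553, at 91.6 and 472 CPM. High Ttr was thus a property of the stimulated slices alone in the batch E mice and of both slices in the batch G mice. The plot of choroid plexus transcripts by library shows that all 9 genes were highest in the 2 batch E slices. Because batch E is wild type only and batch G is T41B only, genotype and batch cannot be told apart within them, and the gene lists with calls are also given for batches A and C only, which leave 2 mice a side.

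**Figure D1:**
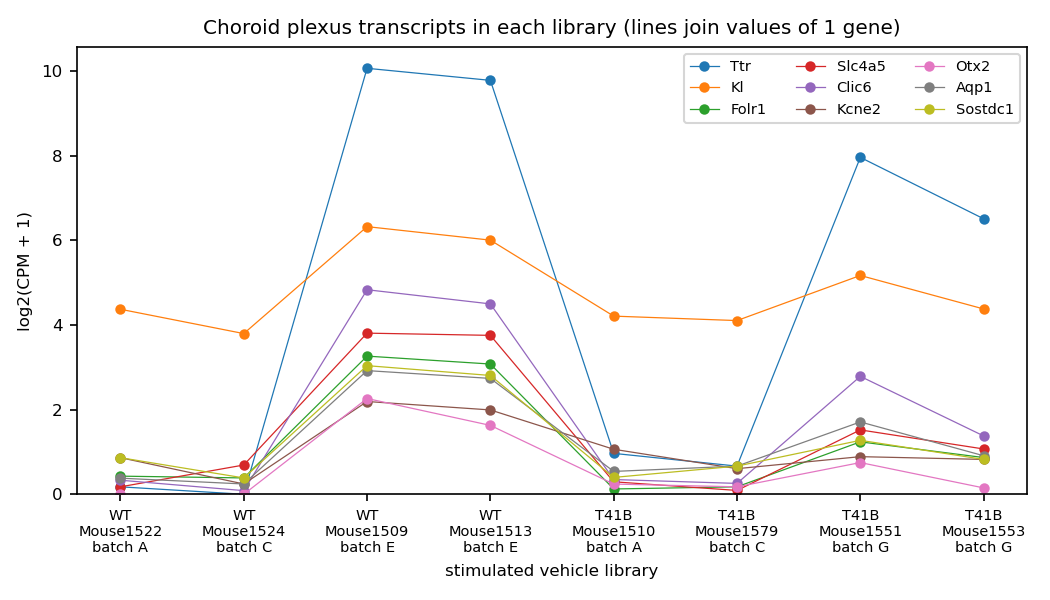
Level of each of 9 choroid plexus genes, as log2(CPM + 1), in the 8 stimulated vehicle libraries, ordered by genotype and batch. Lines join the values of 1 gene. Batch E (Mouse1509 and Mouse1513) is highest for every gene, batch G (Mouse1551 and Mouse1553) is intermediate for most, and batches A and C are low.

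Of the 19478 genes tested, 1128 (5.79%) were called, 923 higher (4.74%) and 205 lower (1.05%) in T41B slices. The differences were larger in the upward direction: the called higher genes had a median log2 fold change of 1.12, and 509 of them exceeded 1, while the called lower genes had a median of -0.44, and 36 were under -1. The median over all genes tested was -0.026. All 4 T41B values lay above all 4 wild-type values for 850 of the 923 higher genes, and below them for 159 of the 205 lower genes, beside 2161 (11.1%) of all genes tested that did not overlap in either direction. In both mixed batches, A and C, the T41B slice was the higher for 906 of the 923 and the lower for 190 of the 205. The slices of these batches took part in the calls, so this agreement is not a separate test. In batches A and C alone (2 mice a side), 157 genes were called higher and 4 lower. Leaving out batch E gave 596 higher and 67 lower, leaving out batch G gave 314 and 26, and leaving out Mouse1551 alone gave 579 and 74.

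**Figure D2:**
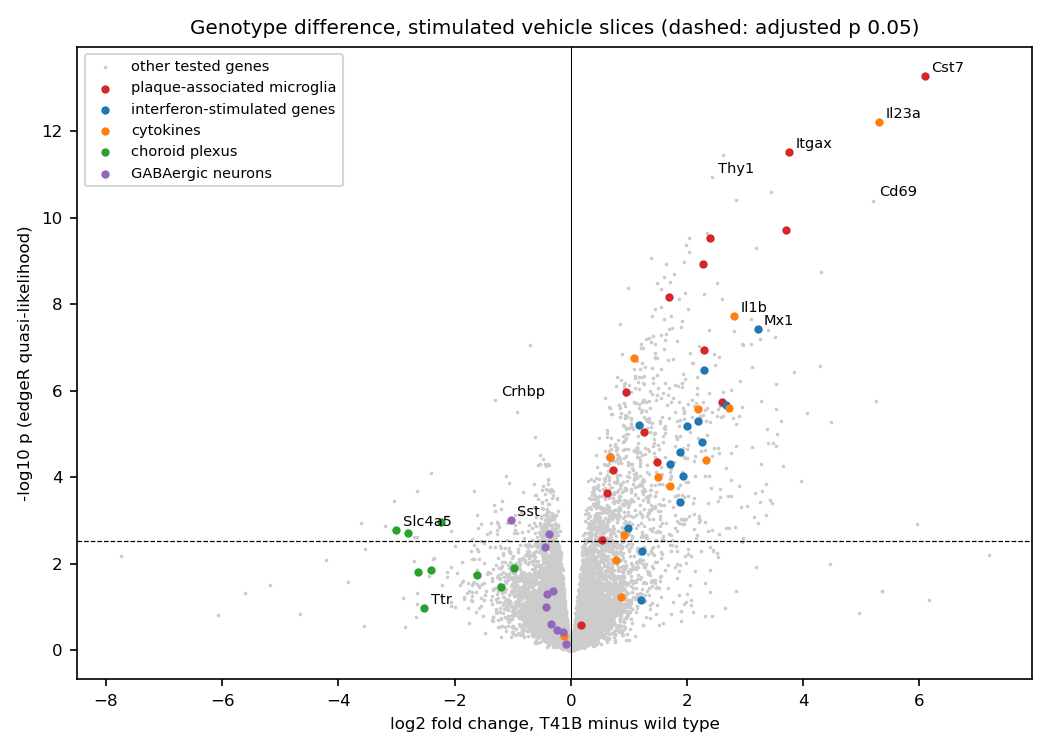
Each point is a gene tested, with the log2 fold change (T41B minus wild type, stimulated vehicle slices) on the horizontal axis and -log10 of the unadjusted edgeR p on the vertical axis. Coloured points belong to 5 gene lists, and the dashed line marks an adjusted p of 0.05. Plaque-associated microglia, interferon and cytokine genes lie to the right and choroid plexus genes to the left.

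Genes of plaque-associated microglia were higher in T41B slices. Of the 16 listed genes of this state, 15 were called higher and none lower, with a median log2 fold change of 1.59, and 8 were called with batches A and C only (median 1.49). Cst7 (cystatin F, an inhibitor of lysosomal cysteine proteases; chromosome 2, 150570415 to 150578944) was at 16.2, 25, 42.6 and 22.4 CPM in T41B slices and at 0.346, 0.676, 0.278 and 0.276 CPM in wild-type slices, a log2 fold change of 6.10 (SE 0.45, adjusted p = 1.01e-09). It ranked highest of the called genes with a mean of 1 CPM or more, and the lowest T41B slice was far above the highest wild-type slice. Itgax (the integrin CD11c) was at 7.0, 13.3, 20.7 and 14 CPM against 0.691, 1.29, 1.11 and 0.992 CPM (log2 fold change 3.76, SE 0.33, adjusted p = 1.76e-08). Clec7a, the beta-glucan receptor dectin-1, had a log2 fold change of 3.71 (SE 0.39) and Spp1 (osteopontin) one of 2.60 (SE 0.44), both called. Lpl, the lipoprotein lipase, was the member not called (0.18, SE 0.16, adjusted p = 0.625), and Apoe passed narrowly (0.54, SE 0.17, adjusted p = 0.049), with wild-type Mouse1524 at 1770 CPM inside the T41B range of 1520 to 1950 CPM. In RNA of whole slices, more cells of a type and more RNA per cell cannot be told apart, nor fewer cells and less RNA per cell.

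The receptor side of that state was higher as well. Trem2 was at 22.9, 32.1, 42.4 and 30.6 CPM in T41B slices and at 6.09, 9.16, 4.63 and 4.46 CPM in wild-type slices, without overlap (log2 fold change 2.40, SE 0.26, adjusted p = 4.8e-07). Of 14 genes of Trem2, Fc receptor and Syk signalling, 11 were called higher and none lower, with a median of 1.69. In batches A and C alone, 3 were called, at a median of 1.18. The Fc receptors, which bind antibody-coated material, had the largest values: Fcgr4 at 3.63 (SE 0.65), Fcgr1 at 2.85 (SE 0.51) and the inhibitory Fcgr2b at 2.52 (SE 0.30). The kinase Syk was called at 1.25 (SE 0.18), below the list median. Downstream, the phospholipase Plcg2 was at 0.43 (SE 0.15, adjusted p = 0.102) and the lipid phosphatase Inpp5d at 0.68 (SE 0.22, adjusted p = 0.066), neither of them called.

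Genes of the surveying state of microglia were less uniform. Of 12 homeostatic genes, 6 were called higher and none lower (median 0.79), and none was called with batches A and C only (median 0.65). Fcrls, an Fc receptor-like protein of microglia, was at 20.3, 25.3, 32.4 and 25 CPM against 10.0, 10.4, 10.0 and 7.11 CPM (log2 fold change 1.45, SE 0.21, adjusted p = 4.32e-05). Selplg, the P-selectin ligand, was at 1.35 (SE 0.24) and the survival receptor Csf1r at 0.92 (SE 0.15), both called. By contrast the purinergic receptors P2ry12 (0.12, SE 0.25) and P2ry13 (-0.07, SE 0.34), Tmem119 (-0.05, SE 0.34) and the lysophospholipid receptor Gpr34 (-0.12, SE 0.51) had log2 fold changes near 0, none called. In the sham slices of the same mice, P2ry13 and Tmem119 were called higher in T41B (0.88, adjusted p = 0.0204, and 0.89, adjusted p = 0.0385). The test of that difference between stimulated and sham slices gave unadjusted p-values of 0.0284 and 0.0371 and adjusted values of 0.529 and 0.548, so neither passed. The summed level of the 12 homeostatic genes was 263 to 348 CPM in T41B slices and 127 to 185 CPM in wild-type slices, and the part of this in the other immune results was not tested.

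**Figure D3:**
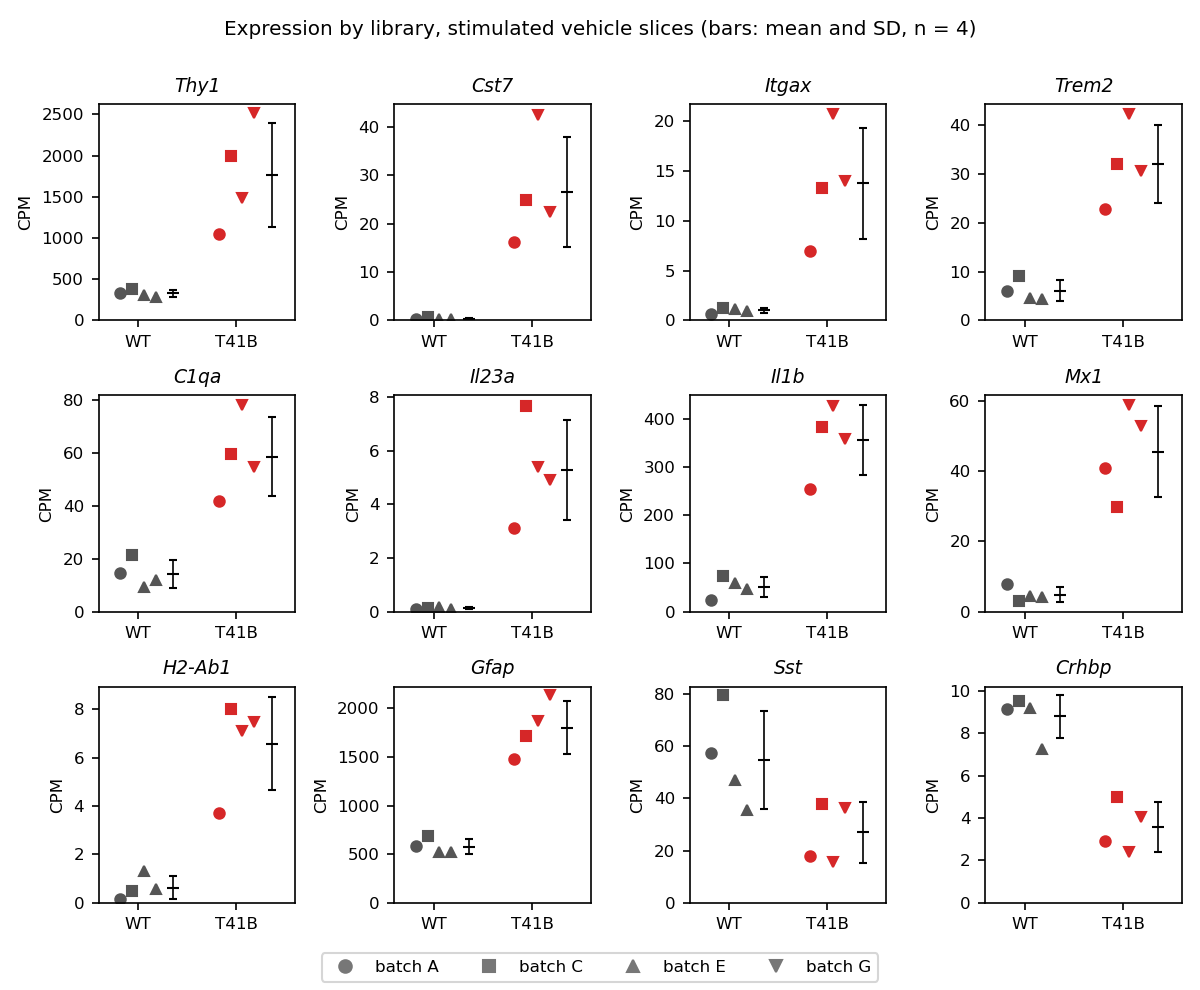
CPM of 12 genes in each stimulated vehicle slice, wild type in grey and T41B in red, with marker shapes for the batches and bars for the mean and SD of the 4 mice of a group. The first 10 genes are higher in every T41B slice than in every wild-type slice, Crhbp is lower in every T41B slice, and Sst overlaps.

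Complement, which tags synapses and debris for removal by microglia, had 11 of 12 genes called higher, none lower and a median of 1.43. In batches A and C alone, 5 were called (median 1.09). C1qa, a chain of the initiating C1q complex, was at 41.9, 59.4, 78.1 and 54.5 CPM in T41B slices and at 14.6, 21.4, 9.17 and 12 CPM in wild-type slices (log2 fold change 2.04, SE 0.23, adjusted p = 7.89e-07). All 12 complement genes were without overlap between the genotypes, against the 11.1% of all genes. The C3 convertase component C4b, made largely by astrocytes and oligodendrocytes in brain, was at 1.42 (SE 0.20) and the integrin subunit Itgb2 of complement receptor 3 at 1.70 (SE 0.20). C1ra, a protease of the C1 complex, was the member not called (0.79, SE 0.25, adjusted p = 0.054).

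Lysosomal genes were called higher for 16 of 20 members, none lower, with a median of 0.92, and for 3 members with batches A and C only (median 0.65). Lyz2 (lysozyme) was at 20.6, 24.9, 37.0 and 26.7 CPM against 4.97, 3.87, 4.82 and 4.02 CPM (log2 fold change 2.62, SE 0.23, adjusted p = 1.76e-08). Cd68, a lysosomal membrane glycoprotein of macrophages, was at 1.70 (SE 0.21), and the proteases Ctss and Ctsd were at 1.45 (SE 0.21) and 1.20 (SE 0.18). Among the members not called, the membrane proteins Lamp1 (0.15, SE 0.10) and Lamp2 (0.15, SE 0.19) had values near 0, as did prosaposin, Psap (0.01, SE 0.09). Of 15 cholesterol and lipid genes, 5 were called higher and none lower (median 0.23), against 2 with batches A and C only (median 0.11). Ch25h, which makes 25-hydroxycholesterol, was at 17, 17.8, 19.2 and 19.3 CPM against 4.19, 3.50, 6.58 and 5.12 CPM, a log2 fold change of 1.91 (SE 0.25, adjusted p = 1.18e-05). The lipid droplet protein Plin2 (1.28, SE 0.26) and the cholesterol exporter Abca1 (1.03, SE 0.19) were also called.

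Antigen presentation was higher for both classes. All 9 genes of MHC class I presentation were called higher (median 1.57), among them Nlrc5, the transactivator of class I genes (2.08, SE 0.35), the immunoproteasome subunits Psmb9 (2.01, SE 0.39) and Psmb8 (1.69, SE 0.27), and the peptide transporter Tap1 (1.73, SE 0.29). Of 9 class II and costimulation genes, 6 were called higher and none lower (median 2.31). H2-Ab1, a class II beta chain, was at 3.73, 8.01, 7.10 and 7.48 CPM in T41B slices and at 0.173, 0.492, 1.3 and 0.551 CPM in wild-type slices (log2 fold change 3.36, SE 0.77, adjusted p = 0.0059). Cd74, the invariant chain, followed at 2.75 (SE 0.62) and Ciita, the class II transactivator, at 2.31 (SE 0.51). With batches A and C only, none of the 9 class I genes and 2 of the 9 class II genes were called, at medians of 1.24 and 2.68. Reads of H2 genes are shared between near-identical copies, so their division among family members is uncertain.

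Interferon-stimulated genes, the antiviral programme that follows interferon receptors, were higher in T41B slices. Of 14 listed genes, 12 were called higher and none lower, with a median of 1.91. Rsad2 (viperin, an antiviral enzyme) was at 598, 310, 859 and 708 CPM in T41B slices and at 128, 66.0, 102 and 94.1 CPM in wild-type slices, a log2 fold change of 2.66 (SE 0.45, adjusted p = 0.000253). In the sham slices of the same mice it was at 8.19, 6.19, 11.3 and 13.0 CPM against 5.03, 1.27, 1.42 and 1.37 CPM. The dynamin-like GTPase Mx1 was at 40.8, 29.8, 58.8 and 53.0 CPM against 7.91, 3.01, 4.35 and 4.08 CPM (log2 fold change 3.22, SE 0.44, adjusted p = 1.61e-05). Every stimulated T41B slice lay above every stimulated wild-type slice for both genes, and the slice of batch C was the lowest of the T41B slices. With batches A and C only, 2 of the 14 were called, Mx1 among them (2.66, SE 0.63, adjusted p = 0.0416), at a list median of 1.48. Among the 15 highest called genes were 4 members of the interferon-induced Ifi200 cluster, Ifi214 (4.28, SE 0.62), Ifi206 (3.84, SE 0.59), Ifi208 (3.53, SE 0.61) and Ifi213 (3.48, SE 0.68), and Oas3 (4.47, SE 0.80), a sensor of double-stranded RNA. The Ifi200 genes are close copies of each other, so the division of reads between them is uncertain.

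Promoters of 4 of these genes are shown because they hold the core of the interferon-stimulated response element, the site read by the interferon-activated factors ISGF3 and the IRFs. The windows are the 250 bases before the transcription start, from RefSeq (GRCm38.p6), printed 5′ to 3′ on the gene's strand, with GAAANNGAAA or its reverse complement in capitals.
Oas3 (chr5:120777660-120777909, minus strand): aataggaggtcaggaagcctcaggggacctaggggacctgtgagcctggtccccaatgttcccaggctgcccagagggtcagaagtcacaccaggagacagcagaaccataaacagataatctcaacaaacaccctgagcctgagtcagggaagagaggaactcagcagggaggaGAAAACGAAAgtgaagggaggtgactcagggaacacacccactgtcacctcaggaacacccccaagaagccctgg
Rsad2 (chr12:26456453-26456702, minus strand): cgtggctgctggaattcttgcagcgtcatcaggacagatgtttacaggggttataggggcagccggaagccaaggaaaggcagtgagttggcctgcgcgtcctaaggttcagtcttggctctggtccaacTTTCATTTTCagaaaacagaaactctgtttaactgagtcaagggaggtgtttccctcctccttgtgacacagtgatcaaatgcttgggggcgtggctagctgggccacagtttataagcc
Isg15 (chr4:156200819-156201068, minus strand): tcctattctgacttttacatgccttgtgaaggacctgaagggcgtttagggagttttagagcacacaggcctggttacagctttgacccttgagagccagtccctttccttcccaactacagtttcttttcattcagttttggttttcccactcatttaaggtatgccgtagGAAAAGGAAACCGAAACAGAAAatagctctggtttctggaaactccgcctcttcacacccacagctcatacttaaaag
Ifit1 (chr19:34640639-34640888, plus strand): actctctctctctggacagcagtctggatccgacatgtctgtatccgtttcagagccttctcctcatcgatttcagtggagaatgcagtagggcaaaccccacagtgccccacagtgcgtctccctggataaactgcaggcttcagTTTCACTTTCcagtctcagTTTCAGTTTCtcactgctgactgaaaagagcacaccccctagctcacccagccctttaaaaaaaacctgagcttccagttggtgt
The capitals begin 75 bases before the start in Oas3 and 120 bases before it in Rsad2. Isg15 holds 3 matches that overlap each other, starting 78, 72 and 66 bases before the start, and Ifit1 holds 2, at 104 and 85. Isg15, a ubiquitin-like modifier, had a log2 fold change of 2.00 (SE 0.36), and Ifit1, which binds foreign RNA caps, one of 1.87 (SE 0.38), both called. On both strands, 76 of 880 windows of called higher genes (8.64%) held a match, 700 of the 923 genes having a window, against 427 of 15894 windows of tested genes (2.69%), 5 of 203 windows of called lower genes (2.46%) and 978 of all 32851 windows (2.98%). In the interferon list itself, 6 of 11 windows (54.5%) held it. The core GAGGAAGT of the myeloid factor PU.1 was in 5.57% of the windows of called higher genes and in 2.30% of those of tested genes. These matches describe letters in the windows, and binding was not measured.

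Cytokines, the secreted signals of immune cells, held the second of the 15 highest called genes. Of 13 cytokine genes tested, 10 were called higher and none lower (median 1.51). In batches A and C alone, 5 were called (median 1.93). Il23a (the p19 subunit of interleukin 23; chromosome 10, 128296140 to 128298084) was at 3.13, 7.68, 5.39 and 4.90 CPM in T41B slices and at 0.0864, 0.123, 0.185 and 0.110 CPM in wild-type slices, a log2 fold change of 5.31 (SE 0.42, adjusted p = 6.04e-09). In sham slices it was between 0.0494 and 0.213 CPM in T41B mice and between 0 and 0.0721 CPM in wild-type mice. Among the vehicle slices of these mice, only the stimulated T41B slices held Il23a above 1 CPM, and the difference between the genotype effects in stimulated and sham slices did not pass adjustment (3.90 on the log2 scale, SE 1.27, unadjusted p = 0.00483, adjusted p = 0.436). Il12b, whose p40 product pairs with p19, was at 34.4, 55.4, 57.5 and 62.3 CPM against 1.69, 16.7, 11.4 and 12.3 CPM (log2 fold change 2.33, SE 0.48, adjusted p = 0.00209).

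Interleukin 1 and its antagonist were higher together. Il1b was at 255, 384, 426 and 358 CPM in T41B slices and at 23.2, 73.8, 58.4 and 47.9 CPM in wild-type slices (log2 fold change 2.81, SE 0.37, adjusted p = 9.76e-06), and Il1rn, the receptor antagonist, had a log2 fold change of 2.73 (SE 0.47). In the sham slices Il1b did not exceed 3.77 CPM in any of these mice. Il6 (2.19, SE 0.38) and the myeloid growth factor Csf3 (1.70, SE 0.39) were called as well, while Tnf (0.77, SE 0.27, adjusted p = 0.101), the anti-inflammatory Il10 (0.87, SE 0.44, adjusted p = 0.309) and Il18 (-0.12, SE 0.16) were not. Tnf was called in sham slices (2.04, adjusted p = 8.49e-05), and the test between stimulated and sham slices gave an unadjusted p of 0.00508 and an adjusted p of 0.436.

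Of 13 chemokines, 10 were called higher and none lower (median 1.23), but 1 was called with batches A and C only (median 1.0). Cxcl10, an interferon-induced attractant of T cells, was at 544, 516, 747 and 949 CPM against 176, 162, 144 and 132 CPM (log2 fold change 2.17, SE 0.35, adjusted p = 0.000167). Ccl6 (2.30, SE 0.33) and Ccl5 (2.05, SE 0.38) were close to it, and the neuronal chemokine Cx3cl1 was not called (-0.07, SE 0.09). NF-kappaB subunits and inhibitors moved less but with little spread: 9 of 10 were called higher, none lower (median 0.85), and all 10 were without overlap. The feedback inhibitor Tnfaip3 (A20) was at 302, 328, 383 and 332 CPM against 96.3, 136, 149 and 129 CPM (log2 fold change 1.40, SE 0.18, adjusted p = 9.76e-06). Of these 10, 6 were called with batches A and C only, at the same median of 0.85. Of 12 Toll-like receptor and inflammasome genes, 7 were called higher and none lower (median 0.93), against 2 with batches A and C only (median 0.73). The list was led by Tlr2 (2.01, SE 0.26), the inflammatory caspase Casp4 (1.56, SE 0.26) and Nlrp3 (1.49, SE 0.18), whereas Tlr4 was at -0.04 (SE 0.32).

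A further 2 members of the 15 highest genes were Cd69 and Hcar2. Cd69, an early activation antigen of leukocytes, was at 5.91, 7.16, 10.4 and 10.8 CPM in T41B slices and at 0.216, 0.246, 0.324 and 0.110 CPM in wild-type slices (log2 fold change 5.21, SE 0.48, adjusted p = 9.79e-08). Hcar2, the receptor for hydroxybutyrate and niacin on microglia, was at 87.9, 93.1, 169 and 118 CPM against 7.61, 16.4, 9.77 and 9.31 CPM (log2 fold change 3.45, SE 0.33, adjusted p = 8.36e-08). The remaining genes of the 15 were Dcstamp (4.31, SE 0.50), a fusion protein of osteoclasts, Gm5431 (3.53, SE 0.56), Themis2 (3.51, SE 0.48) and the channel protein Calhm6 (3.40, SE 0.66). All 15 were without overlap between the genotypes, beside 11.1% of all genes tested, but they were picked for large differences in these same slices.

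Markers of blood-derived leukocytes stayed low in every slice. The 8 neutrophil and monocyte markers summed to 0.165 to 0.795 CPM in T41B slices and 0.123 to 0.346 CPM in wild-type slices, and none had counts enough to be tested. The 10 T and NK cell markers summed to 1.11 to 3.24 CPM against 0.123 to 0.602 CPM, without overlap. Of these, 3 were tested, and the protease Gzma was called: it was at 0.227, 0.130, 0.625 and 0.495 CPM in T41B slices and at 0 in all 4 wild-type slices, which makes it at least 2.39-fold higher, taking 3 counts per library as the wild-type limit. Cd8a (3.19, SE 1.19, adjusted p = 0.127) and Gzmb (2.40, SE 0.91, adjusted p = 0.14) were not called, and 2 of the 10 markers were at 0 in every wild-type slice. Of 6 border macrophage genes tested, 1 was called higher, the scavenger receptor Stab1 (0.67, SE 0.20, adjusted p = 0.0381), and of 3 B and plasma cell genes, none.

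Astrocytes differed by state. Of 10 reactive astrocyte genes, 8 were called higher and none lower (median 1.35), against 2 with batches A and C only (median 1.01). Of 10 general astrocyte genes 1 was called, the water channel Aqp4 (0.64, SE 0.18, adjusted p = 0.0327; list median 0.27). Gfap, the intermediate filament of reactive astrocytes, was at 1480, 1720, 1870 and 2140 CPM in T41B slices and at 586, 688, 520 and 522 CPM in wild-type slices (log2 fold change 1.64, SE 0.19, adjusted p = 1.2e-06). Timp1, an inhibitor of matrix proteases, was at 2.91, 4.62, 3.75 and 10.2 CPM against 1.56, 0.492, 1.39 and 1.27 CPM (log2 fold change 2.16, SE 0.36). Lcn2 (lipocalin 2) was at 1.87 (SE 0.35) and the asparaginase Aspg at 1.49 (SE 0.23). The cytokine receptor Osmr (0.74, SE 0.28, adjusted p = 0.14) and Steap4 (0.96, SE 0.35, adjusted p = 0.117) were not called.

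**Figure D4:**
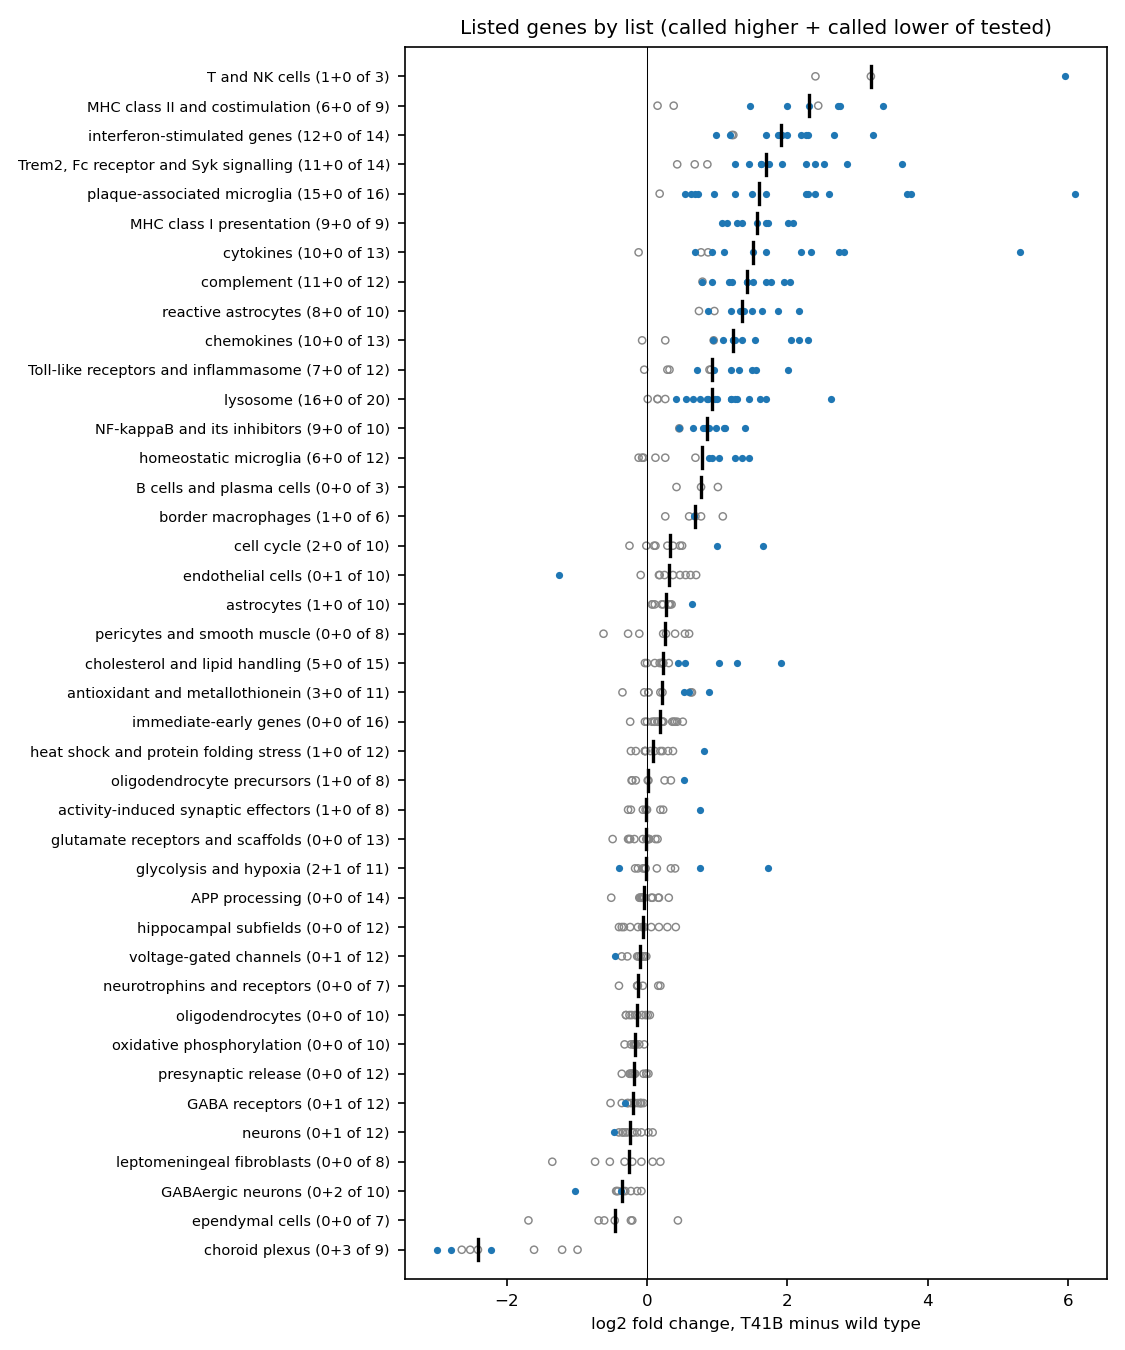
Log2 fold change (T41B minus wild type, stimulated vehicle slices) of every tested gene of 41 lists, filled where called and open where not, with the list median as a black tick and the counts called higher and lower in the row label. Immune and reactive astrocyte lists have medians above 0, and neuronal, synaptic and oligodendrocyte lists have medians of -0.36 to -0.01. All tested genes of the GABAergic neuron, GABA receptor and voltage-gated channel lists lie below 0, as do 54.6% of all genes tested. The choroid plexus list is lowest at a median of -2.41.

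Neuronal genes gave few calls. Log2 fold changes were negative for 10 of 12 general neuronal genes, 11 of 12 presynaptic genes and all 12 channel genes. They were negative for 7 of 13 glutamate receptor and scaffold genes, beside 54.6% of all genes tested. Of 12 general neuronal genes, 1 was called, the presynaptic SNARE protein Snap25, at 565, 776, 492 and 716 CPM in T41B slices and 868, 964, 868 and 836 CPM in wild-type slices (log2 fold change -0.47, SE 0.14, adjusted p = 0.0457). None of 12 hippocampal subfield markers, 13 glutamate receptor and scaffold genes or 12 presynaptic release genes was called, with medians of -0.06, -0.01 and -0.19. Of 12 voltage-gated channel genes, 1 was called lower, the sodium channel Scn1a (-0.45, SE 0.12, adjusted p = 0.0263), which is enriched in fast-spiking interneurons. The channel list had a median of -0.10, which was -0.02 in batches A and C alone, and in batch C the T41B slice was the higher for 11 of the 12 genes. Of 14 APP processing genes and 7 neurotrophin and receptor genes, none was called.

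Interneuron markers were the neuronal group with the lowest median, -0.36 over 10 genes, of which 2 were called lower. Sst (somatostatin, a peptide of dendrite-targeting interneurons) was at 18.1, 37.8, 15.8 and 36.3 CPM in T41B slices and at 57.4, 79.6, 46.9 and 35.5 CPM in wild-type slices (log2 fold change -1.03, SE 0.28, adjusted p = 0.0229). The ranges met, since Mouse1513 was below 2 of the T41B slices. Gad1, which makes GABA, was at 76.2, 99.5, 83.7 and 99.5 CPM against 117, 135, 109 and 104 CPM, without overlap (log2 fold change -0.37, SE 0.11, adjusted p = 0.0391). Gad2 was at -0.44 (SE 0.14, adjusted p = 0.0629) and parvalbumin, Pvalb, at -0.43 (SE 0.25, adjusted p = 0.405). With batches A and C only, Sst was at -1.3 (SE 0.36, adjusted p = 0.0929) and Gad1 at -0.52 (SE 0.16, adjusted p = 0.138), neither called.

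Immediate-early genes, which neurons switch on with activity, gave no call among 16 genes (median 0.18). Fos was at 469, 468, 396 and 316 CPM in T41B slices and at 438, 496, 308 and 328 CPM in wild-type slices (log2 fold change 0.07, SE 0.16, adjusted p = 0.889), and the ranges overlapped. Sham slices of the same mice held Fos at 501, 477, 443 and 648 CPM (T41B) and 311, 428, 368 and 356 CPM (wild type). Egr1 was lower in the stimulated than in the sham slice of every mouse. Induction over sham was not tested here, so the lack of calls does not show equal induction in the genotypes. Egr1 was at 0.11 (SE 0.13), Arc at 0.10 (SE 0.24) and Npas4 at 0.21 (SE 0.28), and the nearest to the threshold was Junb (0.51, SE 0.16, adjusted p = 0.0517). Of 8 activity-induced synaptic effectors, 1 was called, the pentraxin Nptx2, which clusters AMPA receptors: it was at 55.4, 42.2, 66.2 and 62.6 CPM against 31.5, 34.5, 36.9 and 31.5 CPM, without overlap (log2 fold change 0.75, SE 0.20, adjusted p = 0.0193). Bdnf was at 0.19 (SE 0.15, adjusted p = 0.559). In batches A and C alone, no gene of the neuronal, interneuron, channel, synaptic effector or precursor lists was called, nor of the general astrocyte, T and NK cell, heat shock or antioxidant lists. There, 1 gene each of the border macrophage, cell cycle and glycolysis lists was called higher and none lower.

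Metabolic genes differed for single members. Hexokinase 2, Hk2, was at 75.6, 67.7, 110 and 92.9 CPM in T41B slices and at 21.6, 30.9, 27.7 and 25.1 CPM in wild-type slices (log2 fold change 1.72, SE 0.22, adjusted p = 9.76e-06), and the glycolytic regulator Pfkfb3 was at 0.76 (SE 0.15), both called among 11 glycolysis and hypoxia genes. The mitophagy receptor Bnip3 was called lower (-0.40, SE 0.10, adjusted p = 0.0177). None of 10 oxidative phosphorylation genes was called (median -0.17), though with batch as a covariate 5 were called lower. The summed level of the 10 genes was 1190 CPM in wild-type Mouse1524, against 784 to 896 CPM in the other wild-type slices and 772 to 893 CPM in T41B slices. Of 12 heat shock genes, 1 was called, the small chaperone Hspb1 (0.81, SE 0.20), and of 11 antioxidant genes 3, the cystine transporter Slc7a11 (0.89, SE 0.22), thioredoxin reductase Txnrd1 (0.60, SE 0.13) and metallothionein Mt1 (0.53, SE 0.15). Of 10 cell cycle genes tested, 2 were called higher: the proliferation antigen Mki67, at 3.68, 3.84, 4.88 and 2.7 CPM against 1.08, 1.17, 1.06 and 1.49 CPM (log2 fold change 1.65, SE 0.28), and topoisomerase Top2a (1.0, SE 0.29).

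None of 10 oligodendrocyte genes was called (median -0.15), with Mbp, the main myelin protein, at 0.01 (SE 0.27), and of 8 precursor genes 1 was, the proteoglycan Vcan (0.53, SE 0.16, adjusted p = 0.0498). Vessel markers varied widely between slices: the 10 endothelial genes summed to 147 to 273 CPM in T41B slices and 33.9 to 263 CPM in wild-type slices, with Mouse1524 the lowest. Of these, 1 was called lower, the transporter Slco1a4 of the blood-brain barrier (-1.26, SE 0.37, adjusted p = 0.0391), at a list median of 0.31. With batches A and C only, Slco1a4 was at -0.50 (SE 0.50, adjusted p = 0.757), and the list had 1 gene called higher, none lower and a median of 1.08. Without batch E, 2 endothelial genes were called higher and none lower, and with a batch covariate 1 was (median 0.84). None of 8 pericyte and smooth muscle genes was called (median 0.25), but 3 were called higher with a batch covariate (median 0.84), 2 without batch E, 2 with a choroid plexus score as covariate and 1 in batches A and C alone. None of 8 leptomeningeal genes and 7 ependymal genes was called, under these settings either.

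The largest negative differences followed the choroid plexus transcripts. Of the 9 choroid plexus genes, 3 were called lower: the bicarbonate transporter Slc4a5 (-3.00, SE 0.87), the folate receptor Folr1 (-2.80, SE 0.82) and the secreted BMP antagonist Sostdc1 (-2.23, SE 0.61). Slc4a5 was at 0.227, 0.0651, 1.87 and 1.10 CPM in T41B slices and at 0.130, 0.615, 13.0 and 12.5 CPM in wild-type slices, so the 2 high values are those of batch E. With batches A and C only, none of the 9 was called and the list median was 0.45, and without batch E it was 1.21. Without batch G, 2 were called lower (median -3.17). With a choroid plexus score as covariate, none was called lower and 2 were called higher, Ttr (5.78, SE 0.98, adjusted p = 0.000252) and Clic6 (1.32, SE 0.37, adjusted p = 0.0281), at a list median of -0.03. That score is the mean log2 level of these same 9 genes, so the list was fitted against itself. A list median near 0 follows from this, and the 2 higher calls cannot be read as genotype differences. In the fit without covariates Ttr was not called (-2.52, SE 1.51, adjusted p = 0.418), nor were Clic6 (-2.64, SE 1.02), Otx2 (-2.41, SE 0.92), Aqp1 (-1.61, SE 0.64), Kcne2 (-1.21, SE 0.54) and Kl (-0.99, SE 0.37). The 12 lowest called genes averaging at least 1 CPM were Cldn2, a tight junction protein (-3.04, SE 0.75), Col8a1, Tmem72, Prlr, Col8a2, Prrg4, Lbp, Ace and Eps8l2 beside the 3 listed genes. In all of them except Lbp, both batch E slices were more than 2-fold above each of the other 6 slices. Across all 205 lower calls, 15 had both batch E slices more than 2-fold above the other 6, beside 60 of all genes tested. Without batch E the sign turned positive for Slc4a5, Folr1, Col8a1, Tmem72, Sostdc1, Ace and Eps8l2. With the choroid plexus score as covariate, 943 genes were called higher, 851 of them among the 923, and 206 lower, 144 of them among the 205.

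Lower genes whose groups did not overlap were named after their values were seen, Prrg4 among them. Crhbp, which binds corticotropin-releasing hormone and marks interneurons of the somatostatin type (chromosome 13, 95431376 to 95444831), was at 2.91, 5.01, 2.38 and 4.07 CPM in T41B slices and at 9.16, 9.53, 9.21 and 7.27 CPM in wild-type slices (log2 fold change -1.3, SE 0.22, adjusted p = 0.000218). It was also called in sham slices (-0.80, SE 0.21, adjusted p = 0.0197). With batches A and C only, 4 genes were called lower: Crhbp (-1.26, adjusted p = 0.0438), St13 (-0.63, adjusted p = 0.0363), Pcnx4 (-0.46, adjusted p = 0.0431) and Gm21982, the last of which was not called with all 8 mice. Htr2c, a serotonin receptor that choroid plexus also expresses, was at 6.86, 15, 7.95 and 11.6 CPM against 20.8, 21, 28.1 and 31.2 CPM (log2 fold change -1.3, SE 0.34, adjusted p = 0.0168). The prostaglandin E2 receptor Ptger3 (-1.24, SE 0.35), the glycosyltransferase Mgat4c (-1.17, SE 0.29) and the axonemal genes Dnah11 (-1.38, SE 0.38) and Cfap61 (-1.28, SE 0.35) were lower too. None of these 4 was called lower with batches A and C only, nor was Htr2c. In sham slices Dnah11 was at 0.32 (SE 0.36) and Cfap61 at 0.07 (SE 0.32), and the difference between stimulated and sham slices had unadjusted p-values of 0.00302 and 0.00848 (adjusted p = 0.423 and 0.467).

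Whether the genotype difference depended on the stimulation was tested with the sham slices of the same 8 mice. None of the 19478 genes (0.0%) was called by edgeR, where the smallest adjusted p was 0.313 and 1682 genes had an unadjusted p under 0.05. DESeq2 called 1 gene, Hcn4, and edgeR with the mouse as a replicate block called 5 (Daxx, Slc4a5, Malt1, Ccrl2 and Mmp14). The fit with the block used the vehicle slices alone and tested 18513 genes, so the block was not its only change. Of the 923 higher genes, 461 were also called higher in sham slices, beside 5.0% of all tested genes called higher in sham slices. Of the 205 lower genes, 21 were also called lower there, beside 1.24% of all tested genes. Both kinds of slice come from the same mice, so these counts are not independent. The plot of both conditions shows the plaque-associated list near 2.28 in sham and 1.59 in stimulated slices by its median, and the cytokine list near 1.44 and 1.51. The choroid plexus list had a median of 1.82 in sham slices and -2.41 in stimulated ones, and all 9 of its genes had an unadjusted p under 0.05 for the difference. None of the 9 passed adjustment without the block, and Slc4a5 passed with the mouse as a replicate block.

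**Figure D5:**
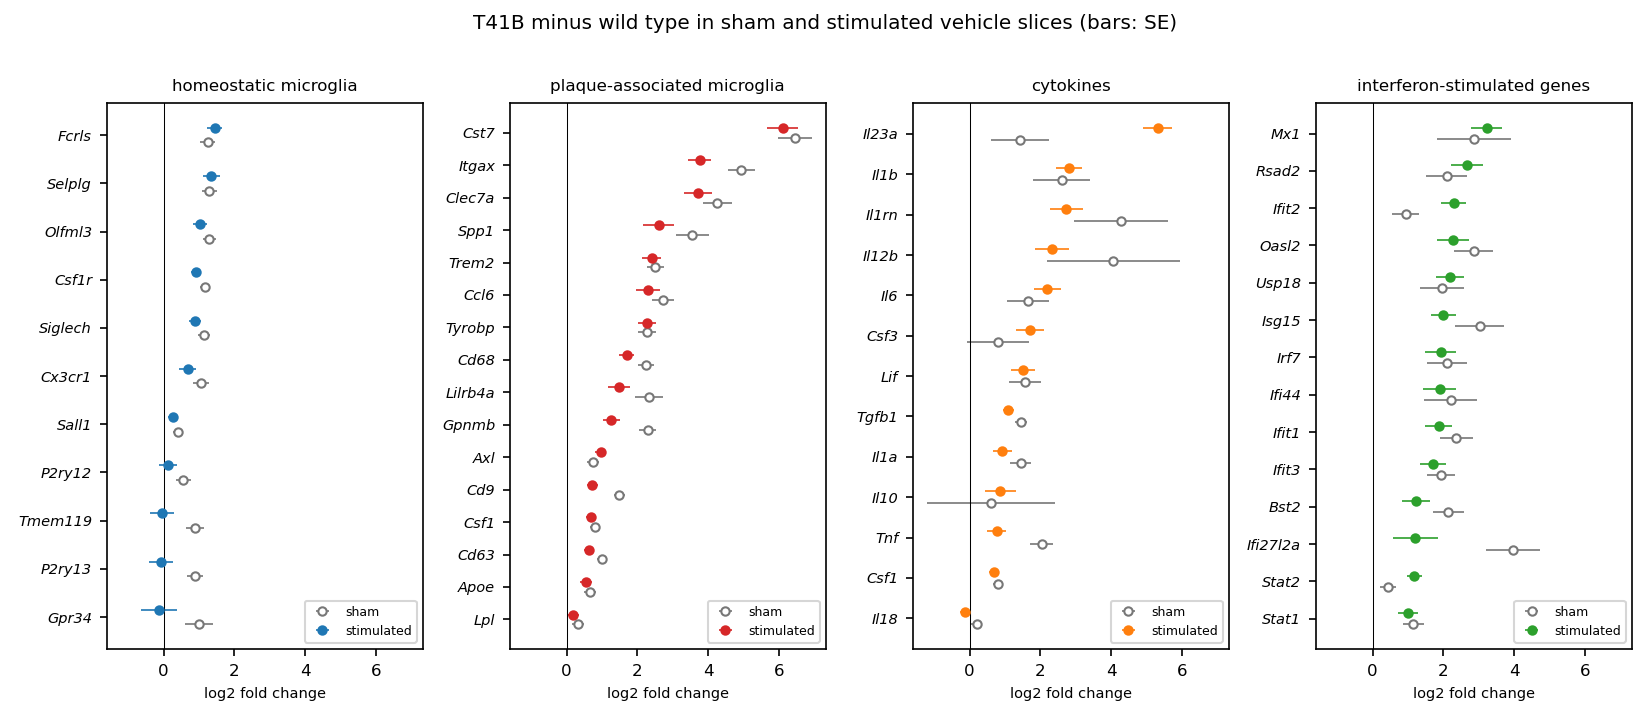
Log2 fold change (T41B minus wild type) with its SE for genes of 4 lists, in sham slices (open) and stimulated slices (filled) of the same 8 vehicle-treated mice. Il23a lies further to the right in stimulated slices, and P2ry13, Tmem119 and Gpr34 lie near 0 in stimulated slices, with none of these differences between conditions passing adjustment.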

How the data were processed

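Total RNA (200 ng a library) was depleted of ribosomal RNA and sequenced with a strand-marking kit, per the labels' protocols. The authors deposited RSEM expected counts per gene for 36 libraries and 55421 genes, in which 5.7% of values carry decimals. The submitters' processing notes list cutadapt 1.8.1, STAR 2.7.6a, RSEM 1.3.1, featureCounts 1.6, SAMtools 1.11 and the builds GRCm38.p6 and mm10. Which annotation release and strand option the counting used is not given in the sources used here, so overlapping and antisense genes are uncertain.

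Libraries with the same mouse and condition were added (4 such pairs), giving 32 samples in 8 groups, and counts were rounded. Genes were kept by edgeR's filterByExpr (minimum count 10), scaled by TMM, and fitted over all 8 groups with edgeR 4.0.16 in R 4.3.3 (glmQLFit and glmQLFTest, no covariate), with Benjamini-Hochberg adjustment over all genes. The SE is the log2 fold change divided by the square root of F. On simulated counts, 67% of 200 genes changed by 1 on the log2 scale were recovered, and 4.3% of calls were false. The simulated counts held no batch differences and no correlation between slices of a mouse, so these shares do not cover either. Each library of a group is a different mouse.

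Sham and stimulated slices of a number come from the same mouse, and their deviations from the group means correlated at 0.01 to 0.38, so the mouse was also fitted as a replicate block for the difference between stimulated and sham slices. Alternatives were RLE size factors, no filter, DESeq2 1.42.0, voom of limma 3.58.1 with the mouse as a block, the 8 libraries alone, a batch covariate, a choroid plexus score covariate, batches A and C only, and each mouse left out. Leaving out batch E or batch G was added after seeing the data.

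The libraries and the 42 gene lists (458 genes) were chosen with earlier results of these data known. Named genes were Thy1 and App, the 15 highest and 12 lowest called genes averaging at least 1 CPM, up to 4 called genes of each list, 2 genes of each list with no call, and the choroid plexus list. Other list members, the 10 lower genes without overlap, and genes named by a single alternative were picked after their values were seen. Of the gene IDs, 55154 matched a symbol. Single members of some lists are not reported here by name.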

Additional observations from a re-analysis of the deposited data

Results flagged for a closer look

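In 278 groups of 4 slices, taken over the named genes, 15 values in 14 genes stood apart from the other 3 of their group by Dixon's criterion (the gap to the nearest slice over the group's range). Chance gives about 1 in 20 groups. Wild-type Mouse1524 held 5 of them, Mouse1513, Mouse1522 and Mouse1551 held 3 each and Mouse1553 held 1.

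Among microglial genes, Clec7a was at 16.1 CPM in T41B Mouse1551 against 5.89 to 7.18 CPM in the other T41B slices. It was at 1.25 CPM in wild-type Mouse1522 against 0.417 to 0.553 CPM. Spp1 was at 1.17 CPM in wild-type Mouse1524 against 2.15 to 2.22 CPM, and Apoe was at 1770 CPM there against 941 to 1060 CPM. Fcrls was at 7.11 CPM in wild-type Mouse1513 against 10.0 to 10.4 CPM, and Cd68 at 8.26 CPM against 11.5 to 11.7 CPM. Ciita was at 0.676 CPM in wild-type Mouse1524 against 0.432 to 0.463 CPM, and Gsdmd, the pore-forming gasdermin D, at 1.47 CPM in wild-type Mouse1522 against 2.41 to 2.48 CPM.

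Among the other genes, the acute-phase gene Lcn2 was at 0.492 CPM in wild-type Mouse1524 against 1.98 to 2.12 CPM, and Panct2 at 2.21 CPM there against 1.25 to 1.38 CPM. The choroid plexus factor Otx2 was at 0.681 CPM in T41B Mouse1551 against 0.11 to 0.182 CPM, and the chaperone Hspb1 at 9.08 CPM there against 6.41 to 6.70 CPM. Egr1 was at 230.0 CPM in T41B Mouse1553 against 303 to 315 CPM. The sorting receptor Sort1 was at 598 CPM in wild-type Mouse1522 against 534 to 540.0 CPM. Crhbp was at 7.27 CPM in wild-type Mouse1513 against 9.16 to 9.53 CPM, and that slice was still above every T41B slice.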

How the results depend on the processing

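The count of called genes was 1128 (923 higher, 205 lower). It fell to 161 (157 and 4) with batches A and C only, to 663 (596 and 67) without batch E and to 340 (314 and 26) without batch G, where fewer mice were tested. The lower calls numbered 107 without a filter and 69 with the 8 libraries alone, and a batch covariate gave 600 higher and 164 lower calls, of which 483 and 47 were among the 923 and 205. For these counts the cause was not tested. Leaving out each mouse gave 653 (without Mouse1551) to 1245 (without Mouse1579) calls, 579 to 1004 higher and 74 to 241 lower. For the difference between stimulated and sham slices, edgeR called 0 genes, DESeq2 called 1, and the mouse as a replicate block called 5. For the genotype comparison, voom with the mouse as a correlated block gave 997 calls (840 higher, 157 lower), 940 of them among the 1128, and 23 of the 109 called named genes lost their call. Of 139 named genes, 109 were called, and 38 of these kept their call under all 18 alternatives.

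Signs turned as follows, and the cause was not tested. Without batch E, log2 fold changes were 1.21 for Slc4a5, 0.85 for Folr1, 2.16 for Col8a1, 0.93 for Tmem72, 0.38 for Sostdc1, 0.26 for Ace, 0.69 for Eps8l2, -0.05 for Mbp, 0.92 for Igf2, 10.02 for Ttr, 0.43 for Kl, 3.47 for Clic6, 0.62 for Kcne2, 5.54 for Otx2, 2.03 for Aqp1, -0.18 for Fos and 0.19 for Grin2b. With batches A and C only they were 0.76 for Col8a1, 0.32 for Tmem72, 0.41 for Eps8l2, 0.73 for Igf2, 3.29 for Ttr, 0.04 for Kl, 0.45 for Clic6, 0.64 for Kcne2, 4.79 for Otx2, 1.02 for Aqp1 and 0.15 for Grin2b. The batch covariate gave -0.07 for Mbp, 0.25 for Igf2, 0.14 for Dcn, 1.18 for Ttr, 0.25 for Kcne2, 0.32 for Otx2, -0.02 for Rarres2 and 0.14 for Grin2b. The choroid plexus score gave 0.46 for Igf2, 5.78 for Ttr and 1.32 for Clic6, both then called higher, 0.54 for Otx2, 0.40 for Aqp1, -0.01 for Fos and 0.05 for Grin2b. Ttr, Clic6, Otx2 and Aqp1 are themselves part of that score. The voom block gave -0.06 for Mbp, 0.20 for Igf2, 0.23 for Ttr, 0.02 for Grin2b and 0.02 for Cox4i1. RLE factors and DESeq2 each gave 0.01 for Grin2b, 0.02 for Bsn and 0.01 for Cplx2, the 8 libraries alone gave 0.0 for Bsn, and leaving out batch G gave 0.0 for Cplx2. Leaving out single mice gave -0.18 to 0.22 for Mbp, -0.58 to 0.20 for Igf2, -0.03 to 0.21 for Fos, -0.16 to 0.07 for Grin2b, -0.08 to 0.06 for Bsn, -0.08 to 0.12 for Cplx2, -0.11 to 0.08 for Aplp1 and -0.15 to 0.24 for Cox4i1.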

Other observations

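Of the genes called lower, 3 lie next to each other on chromosome 15 and were picked after their values were seen. Mchr1, a receptor for melanin-concentrating hormone (81235499 to 81238964), was at 9.18, 6.90, 5.17 and 7.48 CPM in T41B slices and at 13.4, 11.4, 11.3 and 9.42 CPM in wild-type slices (log2 fold change -0.66, SE 0.19, edgeR adjusted p = 0.0311). Slc25a17, a peroxisomal carrier (81318921 to 81360765), was at 8.95, 8.92, 9.42 and 8.31 CPM against 12.7, 13.2, 14 and 14.8 CPM (-0.62, SE 0.12, edgeR adjusted p = 0.000816). St13, a cochaperone of Hsp70 (81365044 to 81399694), was at 65.6, 55.1, 52.6 and 57.8 CPM against 82.7, 104, 91.4 and 96.8 CPM (-0.70, SE 0.10, edgeR adjusted p = 2.59e-05). None of the 3 overlapped between the genotypes.

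The same 3 genes were called lower in the sham slices of these mice, at -0.85, -0.39 and -0.53 for Mchr1, Slc25a17 and St13 (edgeR adjusted p = 0.00497, 0.0446 and 0.000797). Of 19 genes tested within 500 kb of St13, these 3 were called lower and none higher. In batches A and C alone, St13 was called lower (-0.63, edgeR adjusted p = 0.0363), and Mchr1 and Slc25a17 were not. Xpnpep3, the next gene, was at -0.26 (SE 0.11, edgeR adjusted p = 0.17).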
